A study of Mus musculus with 4 samples.

Results

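A set of 7 genes that encode proteins bound to voltage-gated sodium channels were followed through the libraries: the beta subunit genes Scn2b, Scn3b and Scn4b and the FGF homologous factor genes Fgf11, Fgf12, Fgf13 and Fgf14. They were chosen by symbol from the gene list of the count matrices and are 7 of its 31053 genes. All 7 had UMIs (unique molecular identifiers, 1 per captured RNA molecule) in neurons of all 4 libraries. The matrices hold single cells of lumbar dorsal root ganglia (DRG), the ganglia that house the cell bodies of primary sensory neurons. Each sex and surgery gave 1 library (Male-Sham, Male-CCI, Female-Sham, Female-CCI). Mice were C57BL/6, 7 to 8 weeks old, and heterozygous for Pirt EGFPf, in which a membrane-targeted EGFP replaces the coding sequence of Pirt, so that every group, sham included, carried 1 copy of Pirt and expressed EGFP from its promoter, which is active in most DRG neurons. CCI (chronic constriction injury) of both sciatic nerves, in which loose ligatures are tied around the nerve, was compared with sham surgery on both sides, and ganglia L4 to L5 were taken on day 7. For each library the 20 ganglia of 5 mice were pooled and GFP+ cells were sorted. Male and female pools therefore served as the 2 replicates of a surgery, so p-values measure the spread between these 2 pools, and sex cannot be separated from replicate. Littermates received the same surgery, so litter and surgery cannot be told apart.

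Voltage-gated sodium channels carry the rising phase of the action potential. Their pore is an alpha subunit, and beta subunits are single-pass membrane proteins with an immunoglobulin-like domain that attach to it, alter its gating and its delivery to the membrane, and act as adhesion molecules. The beta subunits of Scn2b and Scn4b are tethered to the pore by a disulfide bond, whereas that of Scn3b is held without one, and the intracellular tail of the Scn4b product is known as a blocking particle for resurgent current. FGF homologous factors resemble fibroblast growth factors but stay inside the cell, where they bind the C-terminal tail of the alpha subunit and shift inactivation. In sensory neurons the Fgf13 product is known as a partner of the channels that drive nociceptor firing.

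In the mm10 genome with GENCODE vM21 genes, Scn2b (chr9:45117782-45130070) and Scn4b (chr9:45138395-45154152) are neighbours on the plus strand with 8324 bases between them. Scn3b lies on the same strand at chr9:40269217-40291618. The FGF homologous factor genes are on the minus strand of 4 chromosomes, Fgf11 at chr11:69796068-69801857, Fgf12 at chr16:28160098-28753068, Fgf13 at chrX:59062145-59568071 and Fgf14 at chr14:123977907-124677127. RefSeq start windows (GRCm38.p6) were found for 6 of the 7 genes, 12 windows in all. The 250 bases before each start were searched on both strands for TGANTCA and for the cAMP response element TGACGTCA. TGANTCA, with any base at N, is a loose form of the AP-1 site, which has C or G there. ATF3 and JUN dimers bind the AP-1 site, and genes of both factors are switched on by axon injury. TGANTCA was in 2 of the 12 windows, 1 of Fgf12 and 1 of Fgf13, and in 6.75% of all 32851 windows of this length. The letters were TGAGTCA in Fgf12 and TGAATCA in Fgf13, and only the former has the middle base of the AP-1 site. The cAMP response element was in none of the 12 and in 1.55% of all windows. A match is a description of these letters and not a binding site. The windows below belong to the gene that rose after CCI (Fgf11) and to an FGF homologous factor and a beta subunit gene that fell (Fgf13, Scn2b). They were picked after the values were seen, and only the part outside annotated exons is shown. Capitals mark the match to the loose form, TGAATCA, 156 bases before a start that lies within the span of Fgf13.
Fgf11, chr11:69802281-69802530, minus strand: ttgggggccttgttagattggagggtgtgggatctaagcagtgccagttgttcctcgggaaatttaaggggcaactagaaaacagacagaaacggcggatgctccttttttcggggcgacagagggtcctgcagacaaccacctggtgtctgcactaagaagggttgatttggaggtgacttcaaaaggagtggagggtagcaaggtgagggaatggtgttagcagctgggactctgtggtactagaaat
Fgf13, chrX:59166165-59166338, minus strand: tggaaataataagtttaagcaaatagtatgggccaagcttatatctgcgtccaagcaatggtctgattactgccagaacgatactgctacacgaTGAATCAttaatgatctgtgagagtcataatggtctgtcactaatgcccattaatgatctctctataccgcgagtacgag
Scn2b, chr9:45117626-45117781, plus strand: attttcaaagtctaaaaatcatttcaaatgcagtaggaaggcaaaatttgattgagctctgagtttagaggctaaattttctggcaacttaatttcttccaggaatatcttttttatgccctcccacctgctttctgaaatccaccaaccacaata

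Libraries held 195684124 to 237069156 UMIs, and 2947 to 5548 cells per library passed the filters. Neurons numbered 3281 and 5398 in the male and female sham libraries and 2817 and 3638 in those of CCI, with median UMIs per cell of 45172, 32490, 56457 and 43516.5. Levels are CPM, the share of a gene among the UMIs summed over the cells of a library, on the usual CPM scale, and compare 1 gene between groups and not 1 gene with another. Neurons fell into clusters named after published subtypes by markers, and each name carries "-like": non-peptidergic (NP1 to NP3), peptidergic (PEP1, PEP2, PEP3/4, PEP5), neurofilament-rich (NF1, NF2) and C-fiber low-threshold mechanoreceptor (cLTMR) classes, 4 CCI-induced (CCI-ind) clusters, and 1 cluster left unnamed. The 7 genes were not used to cluster. A neuron was called Sprr1a+, a mark of injury, when its normalized value of Sprr1a, a small proline-rich protein gene switched on by axon damage, was above 1. Sprr1a+ neurons were 1.28% and 2.67% of neurons in Male-Sham and Female-Sham, and 52.1% and 49.2% in Male-CCI and Female-CCI. Between pairs of libraries 215 to 513 cell barcodes were shared, of which 0 to 6 remained among the kept cells. The cluster of satellite glial cell (SGC)-like cells had median UMIs per cell of 4188.5 to 5175, far below those of neurons. It held 1.75 to 5.63 CPM of Scn2b and 28.1 to 49.0 CPM of Scn3b. Of the FGF homologous factor genes it held 5.63 to 12.2 CPM of Fgf11, 18.5 to 22.7 CPM of Fgf12 and 28.8 to 48.5 CPM of Fgf13. Whether this was free RNA or RNA of glia was not tested. These levels are given for comparison and are no floor for neurons, some classes of which lay below them.

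In sham neurons each gene had its own order over the 10 named classes, which is given as a description because classes were made from the same cells. Scn2b was highest in NF2-like neurons, at 207 CPM in Male-Sham and 168 CPM in Female-Sham, and lowest in the other neurofilament-rich class, NF1, at 3.17 and 4.37 CPM. The means differed 49.7-fold between these classes. Between them came PEP5 (mean 116), PEP2 (91.4), cLTMR (68.3), PEP1 (55.6), NP1 (45.0), NP2 (33.5), PEP3/4 (20.6) and NP3 (10.6), and the 2 libraries of no class overlapped those of the next in this order. Scn4b ran the other way between the neurofilament classes. Its level in NF1-like neurons was 175 and 163 CPM, above NF2 (mean 62.1), PEP5 (56.5) and cLTMR (54.9), whose libraries overlapped. It was 19.7 CPM in NP2 and 7.18 CPM in PEP1, and 1.12 to 1.75 CPM in PEP2, NP3 and PEP3/4. NP1-like neurons held 2 UMIs of Scn4b in Male-Sham and 0 in Female-Sham. Scn3b was the most even of the beta subunit genes, with 98.0 CPM in NP3 and 92.8 CPM in cLTMR, which overlapped, then PEP2, NF2 and NP1 (82.1, 78.3 and 77.7, each overlapping the next), PEP1, PEP5 and PEP3/4 (56.8, 47.6 and 45.2), and NP2 and NF1 at 13.7 and 13.6 CPM, which overlapped and stood below the level in SGC-like cells. Within NF1, cluster 26 had 35.4 and 33.3 CPM of Scn3b, inside the SGC-like range, and cluster 19 had 8.16 and 6.08 CPM.

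Of the FGF homologous factor genes, Fgf12 and Fgf13 were high in different classes. Fgf12 reached 1305 and 1065 CPM in NF2 and a mean of 520.1 CPM in cLTMR, then 185 in NF1 and 131 in NP2, down to 34.3 in PEP2 and 33.5 in PEP1, with no neighbouring classes overlapping. Fgf13 was highest in PEP2 (1133 and 1124 CPM), lay at 896 to 1034 CPM on average in PEP3/4, NP1, NP3, PEP1 and NP2, where each class overlapped the next, and was lower in PEP5 (688), NF1 (392), NF2 (250.5) and cLTMR (232). Over the 20 sums of 10 classes in 2 libraries, the log2 levels of Fgf12 and Fgf13 had a Pearson correlation of -0.91, a description of points that share cells and libraries. Fgf11 was found at 23.6 CPM in both PEP5 and NF2, whose libraries overlapped, at 15.1 CPM in PEP3/4 and 11.9 CPM in NF1, and at 0.0817 to 3.03 CPM in the other 6 classes, below its level in SGC-like cells. Within NF1 it was high in the small cluster 26 (45.0 and 26.6 CPM in 48 and 36 cells) and below the SGC-like level in cluster 19 (4.90 and 2.86 CPM in 99 and 129 cells). Fgf14 was scarce everywhere. It was highest in PEP5 (3.40 and 3.39 CPM), lay between 0.109 and 1.63 CPM on average in 7 classes, and had no UMI in NP2- and cLTMR-like neurons of either sham library. Within PEP5 its UMIs were mostly in cluster 6, at 30 and 37 (4.50 and 4.13 CPM). Cluster 14 held 0 and 1 UMIs and cluster 22 held 0 and 2. Within NF1, cluster 26 held 17 and 5 UMIs (4.56 and 2.60 CPM) and cluster 19 held 5 and 4.

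**Figure D1:**
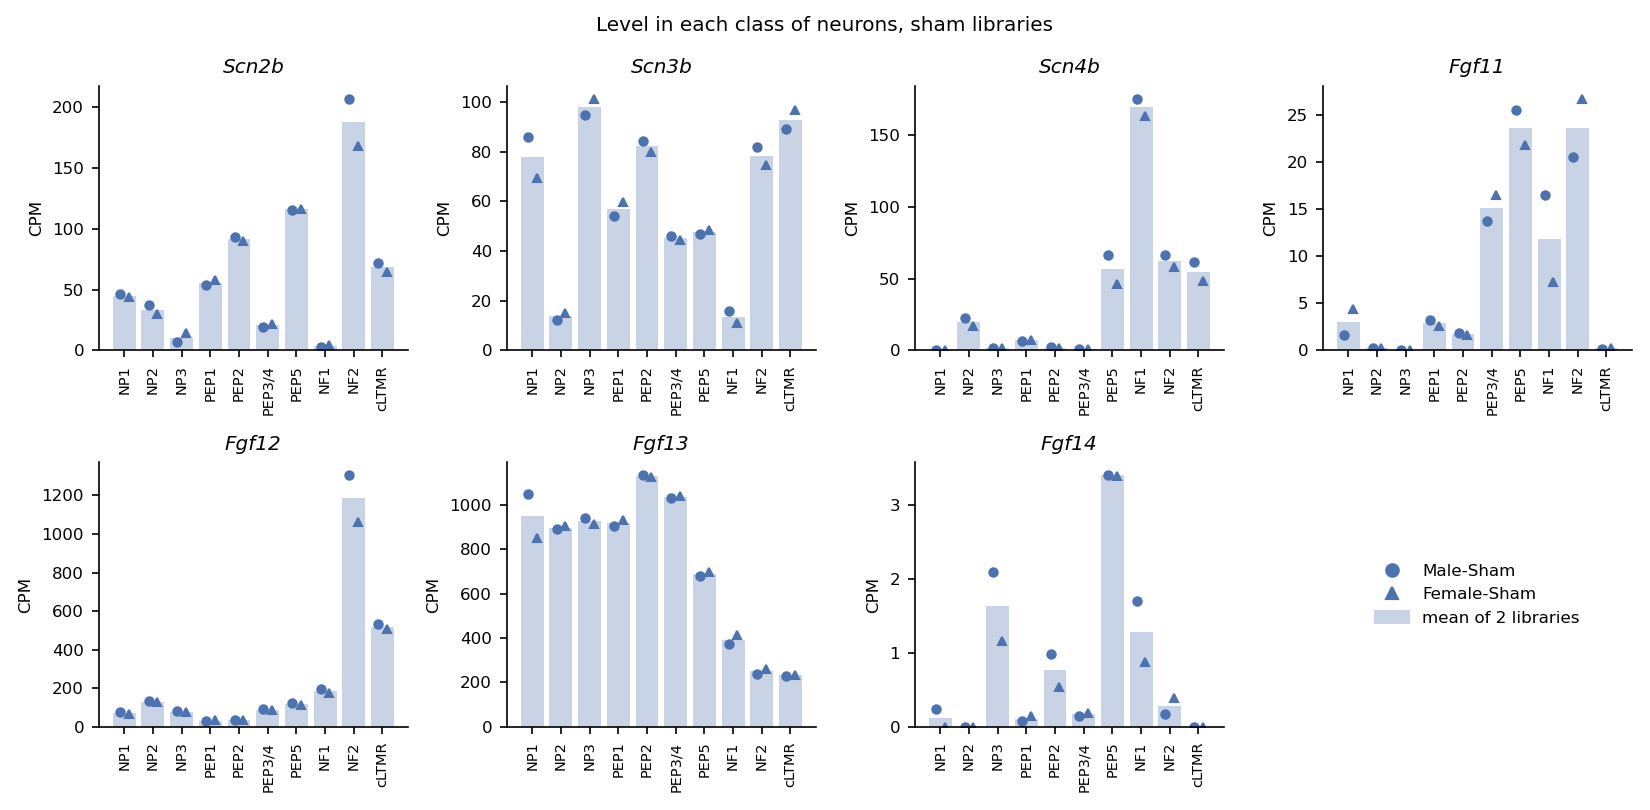
Level of each gene in CPM (y axis, 1 scale per gene) in the 10 named classes of neurons (x axis) of the sham libraries, with Male-Sham as circles, Female-Sham as triangles and bars at the mean of both. Scn2b and Fgf12 peaked in NF2-like neurons at means of 187 and 1185 CPM, Scn4b in NF1-like neurons at 169 CPM, and Fgf13 in PEP2-like neurons at 1128 CPM.

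Among the genes whose levels followed a member most closely over these 20 sums, of all genes with a mean of at least 10 CPM, were Xaf1 and Kcna4 for Scn2b (r = 0.86 and 0.84), Zfp575, Mllt11 and Vezt for Scn3b (0.85, 0.84 and 0.82), and Cntn1, Lrrn1 and Ppm1e for Scn4b (0.96 each). Kcna4 encodes a potassium channel subunit and Cntn1 an adhesion molecule of axons and nodes. For the FGF homologous factors they were Akt2, Gphn and Ppp2r5d for Fgf11 (0.92, 0.91 and 0.90), Creb3l1, Mrpl20 and Dtymk for Fgf12 (0.89, 0.89 and 0.87), Sdc3, Aldh7a1 and Kcnk12 for Fgf13 (0.95, 0.91 and 0.89), and Sulf2, Rbbp7 and Kcnn2 for Fgf14 (0.83, 0.81 and 0.79).

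Across all neurons, 4 of the 7 genes were lower after CCI and Fgf11 was higher. A gene was called changed at an edgeR adjusted p below 0.05 with an absolute log2 change above 0.5. By this rule 27.8% of the 17232 genes tested were called, 15.2% higher and 12.7% lower, and the median log2 change was -0.54 over the members against -0.006 over all genes. Scn2b stood at 49.9 and 49.5 CPM in Male-Sham and Female-Sham, and at 28.3 and 29.9 CPM in Male-CCI and Female-CCI. The sham libraries were nearly equal and both CCI libraries lay well below them, 1.65-fold lower (log2 change -0.72, SE 0.04, edgeR adjusted p = 3.10e-05). Scn3b went from 52.2 and 55.4 CPM to 32.9 and 38.4 CPM (log2 change -0.54, SE 0.08, edgeR adjusted p = 0.00175), with no overlap. Without Male-CCI its change was -0.44 and without Female-Sham -0.50, both short of the size required. Scn4b fell most among the beta subunit genes, from 33.5 and 24.4 CPM to 12.9 and 9.43 CPM (log2 change -1.32, SE 0.23, edgeR adjusted p = 0.0109), and males were above females in both groups. This call was lost when genes of low count were not filtered out (edgeR adjusted p = 0.0689).

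Fgf11 moved against the 4 genes that fell. Its level was 6.64 and 6.47 CPM in the sham libraries and 20.4 and 18.1 CPM in the CCI libraries, 3.05-fold higher (log2 change 1.61, SE 0.08, edgeR adjusted p = 1.73e-05). Fgf13 was lower in both CCI libraries, at 395 and 404 CPM against 765 and 775 CPM, or 0.539 of sham (log2 change -0.89, SE 0.05, edgeR adjusted p = 2.17e-05). Fgf12 had 193 and 169.8 CPM in sham and 120.1 and 131 CPM in CCI. Its log2 change of -0.48 (edgeR adjusted p = 0.00181) was just under the size required, and passed it without Female-CCI (-0.54) or without Female-Sham (-0.57). Fgf14 was at 0.586 and 0.459 CPM against 0.572 and 0.531 CPM, and the groups overlapped (log2 change 0.14, SE 0.19, edgeR adjusted p = 0.569). In these sums fewer cells of a subtype and less RNA per cell cannot be told apart: CCI-ind-like neurons were 40.4% and 40.5% of neurons in the CCI libraries and 1.31% and 2.46% in the sham libraries. The 6 SGC markers summed to 1297 and 1614 CPM in sham neurons and 868 and 1069 CPM in CCI neurons, with 4 of 6 lower and 1 higher in both CCI libraries and none at 0, and their part in these results was not tested. Immune markers summed to 6.26 and 1.49 CPM in sham and 4.58 and 5.76 CPM in CCI neurons, with 1 of 6 higher and 1 lower in both CCI libraries. Schwann cell markers were at 4.51 and 4.10 CPM against 2.51 and 2.59 CPM (2 of 4 lower), endothelial markers at 0.425 and 0.464 CPM against 2.35 and 3.28 CPM (2 of 4 higher, 1 lower) and fibroblast markers at 1.67 and 1.92 CPM against 2.86 and 3.27 CPM (4 of 4 higher), with none at 0, and the part of these lists was not tested.

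**Figure D2:**
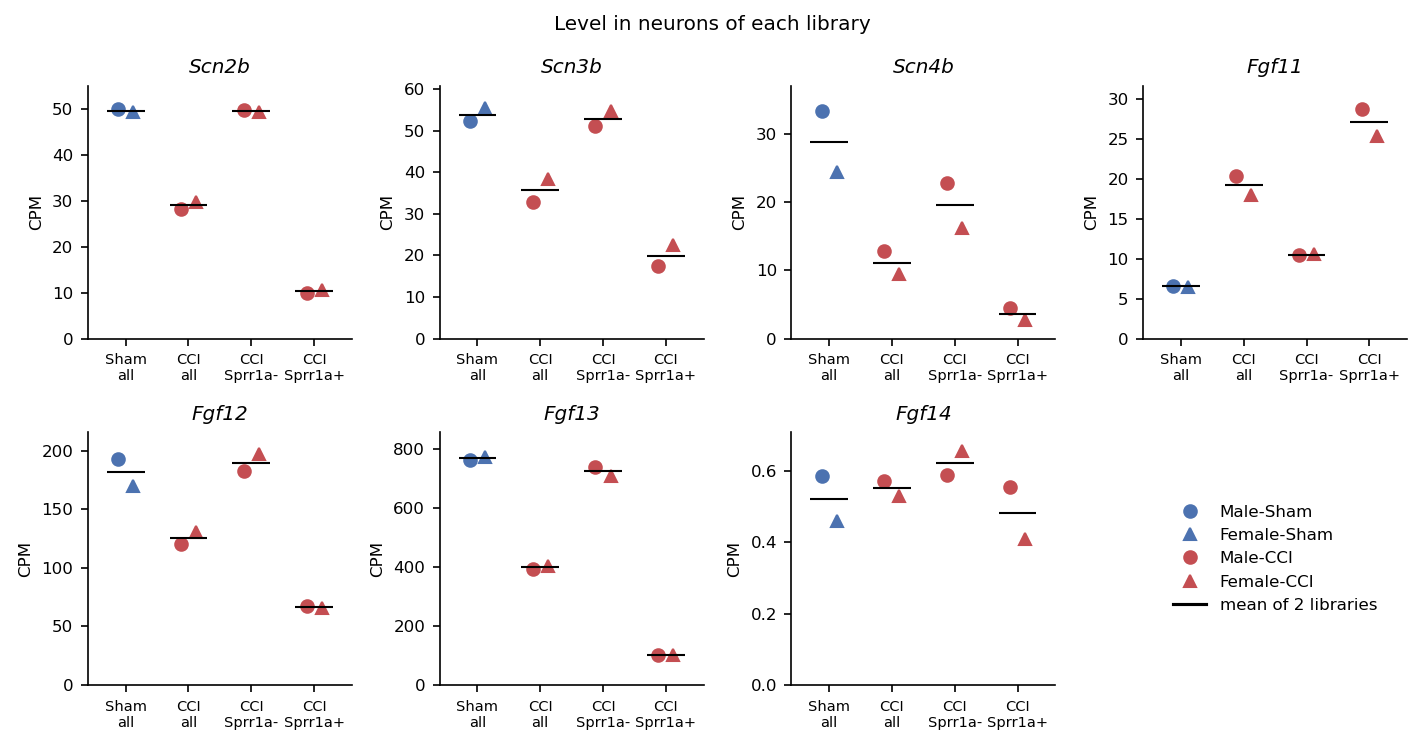
Level of each gene in CPM (y axis from 0, 1 scale per gene) in all sham neurons, all CCI neurons, and the Sprr1a- and Sprr1a+ neurons of the CCI libraries (x axis). Circles are male and triangles female libraries, and lines are the mean of 2. Sprr1a- neurons of the CCI libraries had 49.8 and 49.5 CPM of Scn2b, beside 49.9 and 49.5 CPM in sham, whereas Sprr1a+ neurons had 9.995 and 10.6 CPM.

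Within the CCI libraries, injured and uninjured neurons of the same mice were compared, with the library as a block. Of the 7 genes, 5 were lower and Fgf11 was higher in Sprr1a+ neurons, while 45.5% of 16241 genes were called in this contrast, 20.9% higher and 24.7% lower. The difference was largest for Fgf13, which had 742 and 711 CPM in the Sprr1a- neurons of Male-CCI and Female-CCI and 101.9 and 101.9 CPM in their Sprr1a+ neurons (log2 difference -2.66, SE 0.03, edgeR adjusted p = 3.99e-12). Scn4b dropped from 22.9 and 16.3 CPM to 4.44 and 2.73 CPM (log2 difference -2.28, SE 0.08, edgeR adjusted p = 1.98e-09). Scn2b dropped from 49.8 and 49.5 CPM to 9.995 and 10.6 CPM (log2 difference -2.10, SE 0.05, edgeR adjusted p = 1.47e-10). In each CCI library the Sprr1a+ neurons stood below the Sprr1a- neurons for these genes. For Scn3b the levels were 51.1 and 54.7 CPM against 17.4 and 22.4 CPM (log2 difference -1.25, edgeR adjusted p = 5.54e-06), and for Fgf12 183 and 197 CPM against 67.1 and 65.9 CPM (-1.34, edgeR adjusted p = 3.02e-09). Fgf11 was at 10.5 and 10.6 CPM in Sprr1a- and at 28.8 and 25.4 CPM in Sprr1a+ neurons (log2 difference 1.54, SE 0.06, edgeR adjusted p = 8.44e-09). Fgf14 did not pass (-0.19, edgeR adjusted p = 0.512). Most Sprr1a+ neurons, 1102 of 1467 in Male-CCI and 1405 of 1790 in Female-CCI, were CCI-ind-like, so subtype and injury cannot be told apart here. When any UMI of Sprr1a counted as positive, the differences shrank to -1.09 for Fgf13, -0.52 for Scn4b, -0.85 for Scn2b, -0.66 for Scn3b and 1.09 for Fgf11, all still called, and to -0.20 for Fgf12, which was not. SGC markers summed to 667 and 976 CPM in Sprr1a+ and 1105 and 1163 CPM in Sprr1a- neurons, and Schwann cell markers to 1.32 and 1.49 CPM against 3.92 and 3.72 CPM. Immune (6.04 and 9.27 CPM against 2.85 and 2.18 CPM), endothelial (3.86 and 5.83 CPM against 0.563 and 0.681 CPM) and fibroblast markers (3.73 and 4.28 CPM against 1.84 and 2.25 CPM) were higher in Sprr1a+ neurons of both libraries, and the part of these lists was not tested.

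To hold the subtype, Sprr1a+ CCI neurons were compared with Sprr1a- sham neurons in the 4 classes with at least 10 such cells in every library. Of the 28 pairs of gene and class, 25 could be tested and 22 were called, 18 lower and 4 higher, where 43.3% of all class and gene pairs were called (22.2% lower and 21.1% higher). By class, 41.1% of genes were called in NP1, 46.3% in PEP5, 44.8% in NF1 and 40.6% in NF2. The 4 that rose were Fgf11 in each class. Fgf13 fell in each class, by 2.76 in NP1, 2.36 in PEP5, 1.07 in NF1 and 0.99 in NF2 on the log2 scale, and Scn3b and Fgf12 also fell in each. Several of these calls depended on how clusters or Sprr1a+ cells were defined. With any UMI of Sprr1a as positive, Fgf13 in NF1 was -0.42, Scn3b was -0.006 in NF1 and -0.40 in PEP5, Fgf12 in NF1 was -0.07 and Fgf11 in NF1 was 1.15, none of them called. At cluster resolutions 0.4 and 1.2, in which part of cluster 14 fell in a cluster left unnamed, Fgf11 in PEP5 was at 0.01 and 0.00 (edgeR adjusted p = 0.990 and 1.00) and Scn3b at -0.54 and -0.53 (edgeR adjusted p = 0.263 and 0.262), and neither was called.

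In NP1-like neurons, an itch-associated class marked by Nppb and Sst, the sums came from 83 and 71 sham cells and 98 and 107 CCI cells. Fgf13 was at 1102 and 1005 CPM in sham and 139.8 and 159 CPM in Sprr1a+ CCI neurons (log2 change -2.76, SE 0.10, edgeR adjusted p = 1.32e-25). Scn2b (46.7 and 54.0 to 13.9 and 12.8 CPM), Scn3b (91.6 and 82.7 to 20.5 and 22.9 CPM) and Fgf12 (81.2 and 74.8 to 27.2 and 28.2 CPM) fell by 1.84, 1.96 and 1.44. Fgf11 had 1 and 7 UMIs in the sham sums, or 0.259 and 2.50 CPM, and 279 and 210 UMIs in the CCI sums, or 40.0 and 35.3 CPM. The log2 ratio was 7.27 in males (95% exact interval 4.78 to 12.58) and 3.82 in females (2.75 to 5.15), intervals that cover counting error only, and edgeR called the change (adjusted p = 7.35e-13). Sham cells of this class were mostly in cluster 24 (82 and 63 cells) and CCI cells mostly in cluster 23 (100 and 116 cells), led by Cd207 and also by Wfdc3, so the subtype was not fully held. Scn4b, with 2 and 0 UMIs in sham and 2 and 4 in CCI, was too low to test.

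In PEP5-like neurons, marked by Foxp2 and Trpm8, the gene of the cold channel, all 6 tested genes other than Fgf14 were called. Fgf13 went from 679.7 and 697 CPM to 108 and 109.7 CPM (log2 change -2.36, SE 0.08, edgeR adjusted p = 1.92e-20) and Scn2b from 115 and 116 CPM to 29.6 and 30.6 CPM (-1.65, SE 0.09, edgeR adjusted p = 2.08e-15). Scn4b fell from 66.7 and 46.3 CPM to 4.01 and 4.23 CPM (-3.47, SE 0.21, edgeR adjusted p = 8.05e-10). This class holds clusters that differ in these genes without injury. In sham, cluster 14 had 1.60 and 3.90 CPM of Scn4b and 5.61 and 6.50 CPM of Fgf11, and cluster 6 had 87.6 and 60.1 CPM and 32.2 and 26.8 CPM, while 280 of the 301 Sprr1a+ CCI cells were in cluster 14. Within cluster 14 alone, a setting added after the data were seen, the change of Scn4b was 0.45 and that of Fgf12 0.14, neither called, that of Fgf11 rose from 0.76 to 2.70, and Scn2b (-1.37), Scn3b (-1.26) and Fgf13 (-2.61) stayed called. SGC markers summed to 3748 and 4252 CPM in sham and 1252 and 1499 CPM in Sprr1a+ CCI cells of this class, with 6 of 6 lower. Immune markers summed to 1.81 and 0.509 CPM in sham and 3.58 and 15.9 CPM in these CCI cells, with 4 of 6 higher and 1 at 0 everywhere, and the part of neither list was tested.

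In the neurofilament-rich classes 5 of 7 tested genes were called in NF1 and 6 of 6 in NF2. NF1-like neurons, in which Scn4b was highest, went from 175 and 163 CPM of Scn4b to 30.8 and 22.5 CPM (log2 change -2.26, SE 0.13, edgeR adjusted p = 9.80e-08). Scn2b, low there in sham, was at 3.17 and 4.37 CPM against 2.33 and 3.31 CPM (-0.19, edgeR adjusted p = 0.735). Fgf13 fell from 371 and 413 CPM to 150.3 and 149.7 CPM. Weaker calls in NF1 were those of Fgf11 (16.5 and 7.28 to 33.6 and 54.3 CPM, log2 change 2.07, SE 0.52, edgeR adjusted p = 0.0391), Scn3b (16.0 and 11.2 to 4.44 and 8.61 CPM, -0.96, edgeR adjusted p = 0.0261) and Fgf12 (195 and 175 to 91.5 and 122 CPM, -0.52, edgeR adjusted p = 0.00305). Only 52 and 28 Sprr1a+ CCI cells gave these sums. The call of Fgf11 was lost without Male-CCI (2.44, edgeR adjusted p = 0.238), without Female-CCI (1.83, edgeR adjusted p = 0.255) and with sex as a block (2.09, edgeR adjusted p = 0.216). Those of Scn3b (-0.39, edgeR adjusted p = 0.553) and Fgf12 (-0.31, edgeR adjusted p = 0.057) were lost without Male-CCI, and without Male-Sham they were -0.64 and -0.44, also not called. Within cluster 19, which held 79 of the 80 Sprr1a+ CCI cells, Fgf11 changed by 3.67 and Scn3b by -0.42 (edgeR adjusted p = 0.310). DESeq2 did not call Scn3b either (-0.85, adjusted p = 0.218).

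NF2-like neurons were a single cluster, from which both sides of the comparison came. Whether the Sprr1a- sham and Sprr1a+ CCI cells differed in subtype within it was not tested. Fgf12 fell from 1305 and 1065 CPM to 139.7 and 197 CPM (log2 change -2.58, SE 0.15, edgeR adjusted p = 1.82e-06) and Scn2b from 207 and 168 CPM to 24.8 and 32.3 CPM (-2.49, SE 0.15, edgeR adjusted p = 1.75e-06), the 2 genes that peaked in this class in sham. Scn3b fell from 81.9 and 74.6 CPM to 9.43 and 23.7 CPM (-2.09, edgeR adjusted p = 0.00188, and 0.054 without Male-Sham), Scn4b from 66.2 and 58.1 CPM to 24.6 and 24.5 CPM (-1.09) and Fgf13 from 239.5 and 261 CPM to 113 and 97.6 CPM (-0.99). Fgf11 rose 3.69-fold, from 20.5 and 26.7 CPM to 69.3 and 77.7 CPM (log2 change 1.88, SE 0.15, edgeR adjusted p = 8.57e-06). Both CCI libraries lay outside both sham libraries for each of these 6 genes. How many of all genes did so was not counted in this contrast, in which 40.6% of genes were called. With any UMI of Sprr1a as positive the changes of Scn2b, Scn3b, Fgf12 and Fgf13 were -1.08, -1.01, -1.13 and -0.52, all still called. Schwann cell markers summed to 19.3 and 19.8 CPM in the Sprr1a- sham neurons of this class and 0.842 and 2.15 CPM in the Sprr1a+ CCI neurons, with 1 of 4 lower in both CCI libraries and 2 at 0 everywhere. Endothelial markers were at 0.171 and 0.385 CPM against 6.74 and 2.42 CPM in sum, with 2 of 4 higher, and the part of both lists was not tested.

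**Figure D3:**
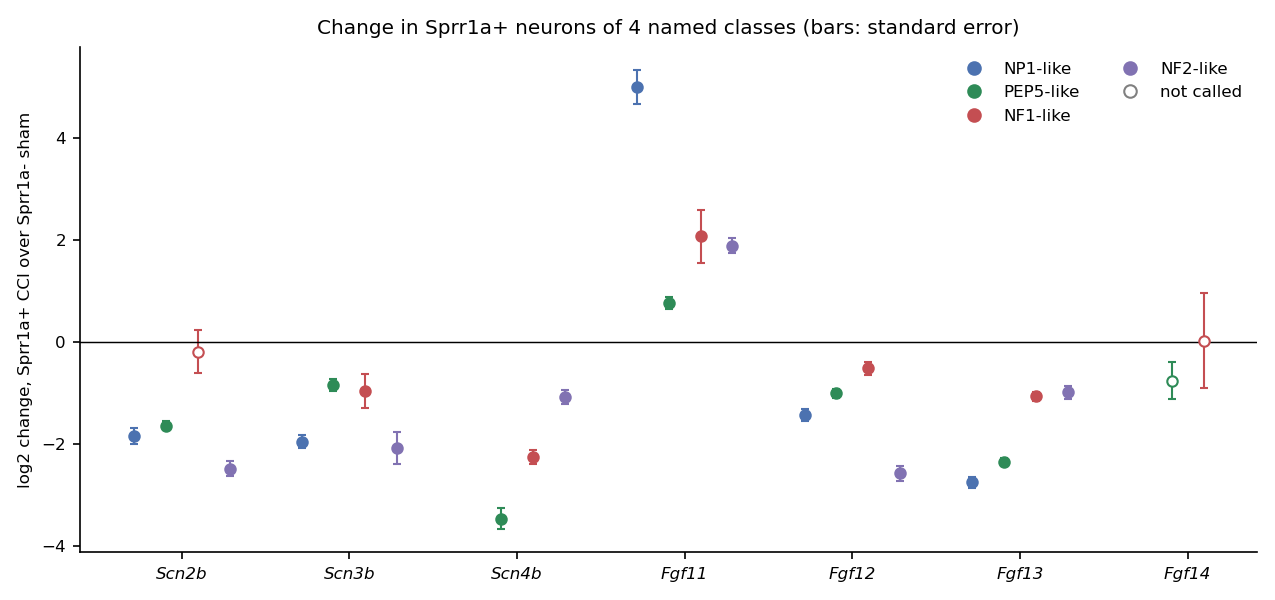
Log2 change of each gene (x axis) in Sprr1a+ CCI over Sprr1a- sham neurons (y axis) in the NF1-, NF2-, NP1- and PEP5-like classes (colours). Points are edgeR estimates from 2 libraries per group, bars their standard error, and open points were not called. Fgf11 lies above 0 in the 4 classes, from 0.76 in PEP5 to 5.00 in NP1, and Fgf13 below 0, from -0.99 in NF2 to -2.76 in NP1.

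Whether the classes differed in their changes was tested as a difference of log2 changes between NP1, NF1 and NF2. Sham cells of NP1 were mostly in cluster 24 and its CCI cells mostly in cluster 23. Cluster and injury therefore cannot be told apart in the differences from NP1. Of 18 tested pairs, 13 were called, 6 higher and 7 lower, against 22.6% of all tested pairs (10.6% higher, 11.9% lower) and 31.1%, 21.5% and 15.1% for NF1 against NP1, NF2 against NP1 and NF2 against NF1. Fgf13 fell less in NF1 and in NF2 than in NP1, by 1.67 (SE 0.14, edgeR adjusted p = 6.77e-21) and 1.72 (SE 0.17, edgeR adjusted p = 1.42e-07). Between NF2 and NF1 its changes differed by 0.11 with an SE of 0.13 (edgeR adjusted p = 0.631). Fgf12 fell more in NF2 than in NF1 (difference -2.07, SE 0.12, edgeR adjusted p = 1.22e-10) and Scn4b fell less (1.23, SE 0.18, edgeR adjusted p = 4.58e-05). With any UMI of Sprr1a as positive, the latter was 0.10 and not called. The levels of Fgf13 drew together: they ran from 239.5 to 1102 CPM over the 4 classes in sham, and from 97.6 to 159 CPM in Sprr1a+ CCI neurons.

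**Figure D4:**
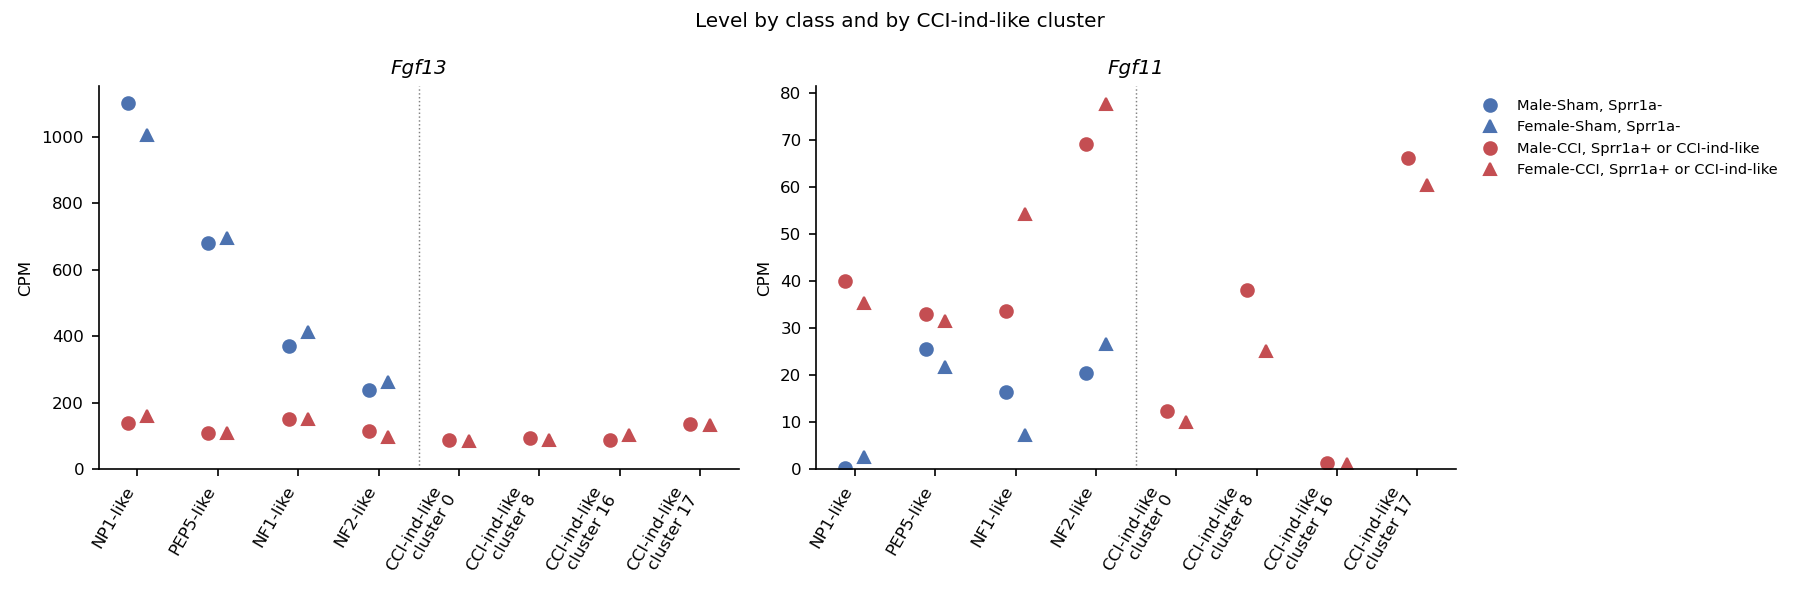
Levels of Fgf13 (left) and Fgf11 (right) in CPM (y axis, from 0) in Sprr1a- sham neurons (blue) and Sprr1a+ CCI neurons (red) of 4 classes and, right of the dotted line, in the 4 CCI-ind-like clusters of the CCI libraries (x axis). Circles are male and triangles female libraries. Fgf13 lies between 84.5 and 159 CPM in each red point, whereas Fgf11 runs from 1.12 CPM in cluster 16 to 77.7 CPM in NF2-like neurons.

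The other classes held too few Sprr1a+ CCI cells for this comparison, and most such cells were in the CCI-ind-like clusters. In an alternative clustering, genes 1.5 times or more apart between CCI and sham, in the same direction in males and in females, and the CCI-ind markers were left out, so that 1922 of the 3000 variable genes remained, and the Sprr1a+ CCI cells in CCI-ind-like clusters went from 1102 to 440 in Male-CCI and from 1405 to 558 in Female-CCI. NP2-, NP3-, PEP1-, PEP2-, PEP3/4- and cLTMR-like classes then had at least 10 Sprr1a+ CCI cells per library, and the same comparison, read in these 6 classes after the data were seen, tested 35 of 42 pairs and called 28, 22 lower and 6 higher, against 43.4% of all class and gene pairs (21.9% lower, 21.5% higher). Fgf13 was lower in all 6, for example from 941 and 913 CPM to 79.5 and 82.4 CPM in NP3 (log2 change -3.63, SE 0.12, edgeR adjusted p = 1.93e-16) and from 229.5 and 235 CPM to 94.9 and 109 CPM in cLTMR (-1.17, SE 0.09, edgeR adjusted p = 1.83e-07). Fgf11 was higher in all 6. In PEP3/4 it went from 13.6 and 16.4 CPM to 68.4 and 69.1 CPM (2.33, SE 0.10, edgeR adjusted p = 1.89e-10), in PEP1 from 64 and 64 UMIs (2.96 and 2.32 CPM) to 577 and 273 UMIs (57.7 and 36.0 CPM), and in NP2 from 9 and 9 UMIs to 246 and 136 UMIs. In cLTMR it was at 2.09 and 1.67 CPM (13 and 10 UMIs) after CCI, still below its level in SGC-like cells. In PEP2 it had 18 and 28 UMIs after CCI, from only 10 and 29 cells. Scn2b was lower in 5 of the 6 and not called in PEP3/4 (-0.32), Scn3b in 4 (not in NP2, -0.42, or PEP3/4, -0.28) and Scn4b in 3 of 5 tested, NP2, PEP1 and cLTMR. Fgf12 fell in 4, from 532 and 508 CPM to 129 and 127 CPM in cLTMR, and was at 32.4 and 33.8 CPM against 29.0 and 35.3 CPM in PEP1 (0.06) and at -0.20 in PEP2. In the 4 classes tested above, this clustering ended the calls of Fgf11 (2.00, edgeR adjusted p = 0.0632) and Fgf12 (-0.48) in NF1 and of no other member.

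The CCI-ind-like clusters of the clustering with all variable genes, which carry no subtype name, were similar in Fgf13 and unlike each other in Fgf11. Fgf13 was at 87.4 and 84.5 CPM in cluster 0 (led by Anxa1) of Male-CCI and Female-CCI, 94.5 and 88.4 CPM in cluster 8 (Wfdc3), 86.4 and 102 CPM in cluster 16 (Crh) and 135 and 134 CPM in cluster 17 (Ly6a). Fgf11 was at 12.3 and 10.0 CPM in cluster 0, 38.1 and 25.3 CPM in cluster 8, 1.37 and 1.12 CPM in cluster 16, and 66.3 and 60.5 CPM in cluster 17. Fgf12 had another order, highest in cluster 16 (138 and 133 CPM), then cluster 0 (63.9 and 62.1), cluster 17 (42.5 and 42.7) and cluster 8 (33.9 and 30.8). Scn2b lay between 2.75 CPM in cluster 0 and 20.0 CPM in cluster 17. These values describe clusters made from the same cells and carry no test.

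In Sprr1a- neurons, few changes were found. Of 70 pairs of gene and class, 58 could be tested in 10 classes and 7 were called, 4 lower and 3 higher, against 3.26% of all class and gene pairs (1.37% lower, 1.89% higher). By class, 3.97% of genes were called in NP1, 4.49% in NP2, 2.65% in NP3, 5.25% in PEP1, 4.25% in PEP2, 3.49% in PEP3/4, 3.58% in PEP5, 0.994% in NF1, 2.02% in NF2 and 1.71% in cLTMR. These comparisons share their sham sums with those of Sprr1a+ neurons. The 4 lower calls were all of Scn4b and the 3 higher calls all of Fgf11. Scn4b went from 66.2 and 58.1 CPM to 46.1 and 33.3 CPM in NF2 (log2 change -0.61, edgeR adjusted p = 0.0369), from 22.6 and 16.9 CPM to 13.8 and 9.64 CPM in NP2 (-0.77, edgeR adjusted p = 0.0287), from 66.7 and 46.3 CPM to 36.6 and 31.3 CPM in PEP5 (-0.75, edgeR adjusted p = 0.0453), and from 34 and 36 UMIs to 7 and 6 UMIs in PEP3/4 (-1.31, edgeR adjusted p = 0.0439). Both CCI libraries lay below both sham libraries in each. These calls lay near the threshold: without Male-CCI those of PEP3/4 and PEP5 were lost (edgeR adjusted p = 0.0872 and 0.0736), without Female-CCI all 4 (adjusted p from 0.12 to 0.283), without Male-Sham those of NF2 and PEP3/4 (0.144 and 0.171), and without Female-Sham that of PEP3/4 (0.0873).

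In Sprr1a- neurons Fgf11 rose most in the PEP2-like class, from 15 and 21 UMIs (1.85 and 1.64 CPM) to 53 and 48 UMIs (8.98 and 7.96 CPM), 4.88-fold (log2 change 2.29, SE 0.27, edgeR adjusted p = 1.91e-05), and the call was kept on leaving out each library in turn. The class held clusters 15 and 13, and over all their cells the higher counts were in cluster 15, from 9 and 18 UMIs (2.27 and 2.49 CPM) to 53 and 44 UMIs (15.5 and 11.7 CPM), against 6 and 3 UMIs in sham and 0 and 4 UMIs in CCI in cluster 13, a split with no test. In PEP1-like neurons it was at 3.21 and 2.58 CPM in sham and 5.18 and 6.06 CPM in CCI (0.99, edgeR adjusted p = 0.00623, and 0.0533 without Female-Sham). In NF2-like neurons it went from 20.5 and 26.7 CPM to 34.1 and 42.3 CPM (0.76, edgeR adjusted p = 0.0249), and was not called without Female-CCI (0.57, edgeR adjusted p = 0.0865) or without Male-Sham (0.56, edgeR adjusted p = 0.191). Over all PEP1 cells, cluster 4 went from 4.33 and 3.29 CPM of Fgf11 in sham to 7.20 and 7.63 CPM in CCI. Cluster 7 had 6 and 15 UMIs in sham and 4 and 25 UMIs in CCI. Cluster 20 had 22 and 20 UMIs in 98 and 201 sham cells, and 3 and 2 UMIs in 10 and 31 CCI cells. This split carries no test either. The CCI levels in PEP1 and PEP2 were near those of SGC-like cells, 5.63 to 12.2 CPM. The summed SGC markers went from 1400 and 1387 CPM to 400.1 and 567 CPM in PEP1 (6 of 6 lower) and from 3546 and 2725 CPM to 1992 and 1837 CPM in PEP2 (5 of 6 lower), and their part was not tested. Of 70 pairs of class and gene from a list of injury genes, 36 were also called higher in these Sprr1a- neurons. Of all class and gene pairs, 1.89% were called higher. The list includes Sprr1a, the gene by which these cells were chosen, and no count was made without it.

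Fgf13 changed by -0.02 to -0.43 in Sprr1a- neurons and was called in no class. The widest change was in NP1, from 1102 and 1005 CPM to 857 and 722 CPM (edgeR adjusted p = 0.0318), which passed in significance but not in size. Without Male-CCI it was -0.53 and called. Over all cells, Sprr1a+ included, NP1 cluster 24 had 1102 and 1091 CPM of Fgf13 in sham and 923 and 952 CPM in CCI. Cluster 23 had 475 and 345 CPM in sham and 138 and 158 CPM in CCI. The part of this mix of clusters in the NP1 change was not tested. Although called in no class, Fgf13 had both CCI libraries below both sham libraries in 7 of 10 classes and above in none. Of all class and gene pairs, 25.9% lay below and 27.6% above. Over the pairs that could be tested, as in those shares, the counts below and above were 7 and 0 of 9 classes for Scn4b, 5 and 3 of 10 for Scn3b, 4 and 1 of 10 for Scn2b, 1 and 4 of 10 for Fgf12, 0 and 4 of 6 for Fgf11 and 0 and 0 of 3 for Fgf14. The total of 7 calls moved to 12 without Male-CCI and to 2 without Female-CCI.

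**Figure D5:**
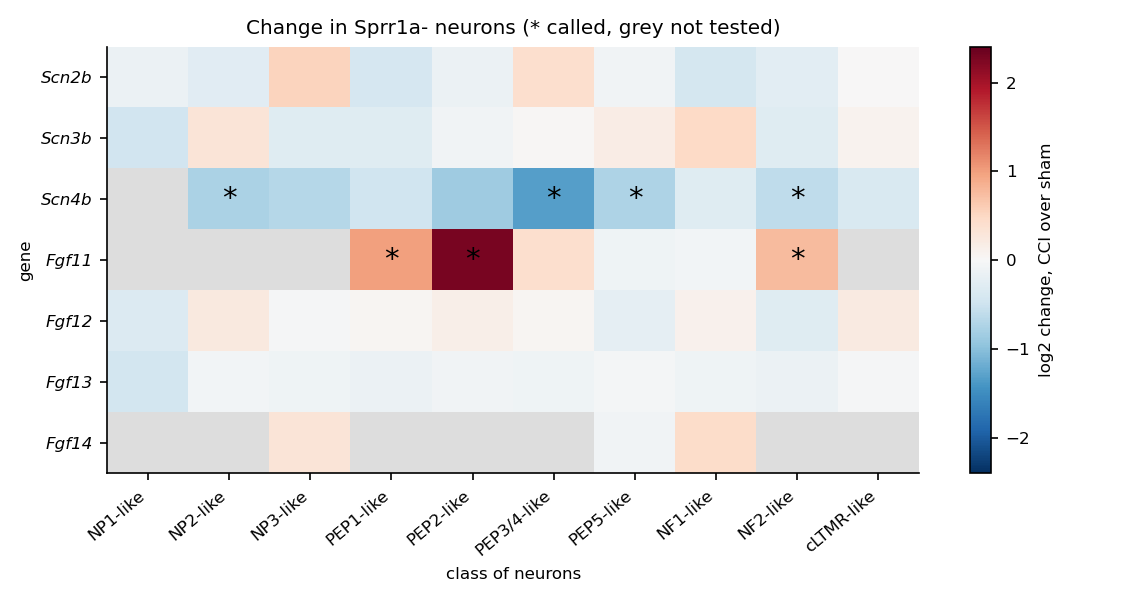
Log2 change in Sprr1a- CCI over Sprr1a- sham neurons (colour) of each gene (rows) in the 10 named classes (columns), from edgeR with 2 libraries per group. Asterisks mark the 7 calls, 4 of Scn4b and 3 of Fgf11, and grey cells were too low to test. The strongest colour is Fgf11 in PEP2, at 2.29.

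The pore-forming partners were counted from a fixed list of 10 alpha subunit genes. Across all neurons 6 were called after CCI, all lower, with a median log2 change of -0.71, against 27.8% of all genes. Among the called genes were Scn1a (-0.83), Scn4a (-1.16), Scn7a (-0.59), and Scn10a (-1.02) and Scn11a (-1.20), the tetrodotoxin-resistant channels of nociceptors. In the CCI libraries 8 of 10 were called, all lower in Sprr1a+ than in Sprr1a- neurons, against 45.5% of all genes. Scn10a had 202 and 207 CPM in Sprr1a- and 11.7 and 13.6 CPM in Sprr1a+ neurons (log2 difference -3.84), Scn11a 142 and 148 CPM and 6.75 and 8.37 CPM (-4.09), and Scn9a 314 and 311 CPM and 155 and 145 CPM (-0.89). Scn2a (0.02) and Scn3a (-0.25) were not called. Within classes, where 43.3% of all pairs were called, 22 of 32 tested pairs were lower and 3 higher in Sprr1a+ CCI neurons: Scn2a in NF1 (0.67) and NF2 (0.86) and Scn3a in NF2 (0.95). In Sprr1a- neurons 3 of 81 tested pairs were called, all higher, near the 3.26% of all pairs.

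Genes of the axon initial segment and node, where these channels are anchored, moved in both directions. Of 13, 3 were higher and 2 lower across all neurons, with a median log2 change of 0.14, where 15.2% of all genes were higher and 12.7% lower. Ank3, which encodes the ankyrin that holds sodium channels at the initial segment, had 208 and 195 CPM in sham and 338 and 332 CPM in CCI (log2 change 0.79), and Kcna1, a potassium channel gene, 30.3 and 24.5 CPM and 44.0 and 36.0 CPM (0.60). Kcna2, its partner subunit, went from 127 and 113 CPM to 63.9 and 59.2 CPM (-0.90), and Cntnap1, a paranodal adhesion gene, from 26.4 and 25.5 CPM to 16.4 and 16.1 CPM (-0.62). In Sprr1a+ neurons of the CCI libraries 5 of the 13 were higher and 4 lower, beside 20.9% and 24.7% of all genes. Within classes 15 of 51 tested pairs were higher and 18 lower in Sprr1a+ CCI neurons, beside 21.1% and 22.2% of all pairs, and the 6 of 121 called in Sprr1a- neurons, where 3.26% of all pairs were called, were all higher. Of 11 genes for trafficking, processing and binding partners, 1 was higher and 1 lower across all neurons (median -0.009), where 27.8% of all genes were called. Adam10, a protease, was at 31.6 and 33.1 CPM in sham and 59.3 and 55.7 CPM in CCI (0.88), and Nedd4l, a ubiquitin ligase known to act on sodium channels, fell by 0.64 on the log2 scale. Within classes 8 of 44 tested pairs of this list were higher and 9 lower in Sprr1a+ CCI neurons, near the 43.3% of all pairs called.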

How the data were processed

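Single-cell libraries (Chromium Next GEM 3′ v3) were made from GFP+ DRG cells, 1 library per sex and surgery. The deposited values are raw UMI counts per gene and cell, which the authors made with Cell Ranger on mm10 (version 2.1.1 per the labels, 3.0.2 per the file headers). Cells with at least 1500 genes and at most 10% mitochondrial UMIs were kept. Scrublet (scanpy 1.11.5, expected rate 0.1) set its automatic limit at 0 to 121 doublets a library, so as many top-scoring cells were dropped from each library as the study lists as doublets. Libraries were integrated by canonical correlation in Seurat 5.3.0 (3000 variable genes, 20 components, resolution 0.8), giving 29 clusters. Clusters were named by markers (3 or more in at least 10% of cells and at least 2-fold). The limit on pan-neuronal markers (ratio of 0.5) that separated neurons, and the rule that a name needs 1 of its own markers among the 10 leading genes (CCI-ind excepted), were set after the clusters were seen. Sprr1a+ means a natural log of 1 + UMIs per 10000 above 1.

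UMIs were summed per library and group of at least 10 cells and tested with edgeR 4.0.16 (quasi-likelihood, filterByExpr, TMM) across all genes, with Benjamini-Hochberg adjustment. Scripts were tested on simulated data. Of 19 alternatives tried, 1 used DESeq2 1.42.0. All 7 members were named, and from the lists of initial segment genes and partners only the 2 called genes with the largest change in each direction across all neurons. Values of some genes of the lists are not reported here. The members and lists were chosen with earlier results of these data known.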

Additional observations from a re-analysis of the deposited data

Results flagged for a closer look

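The changes of Sprr1a+ CCI over Sprr1a- sham neurons differed between classes in 13 tests of the difference itself (edgeR, adjusted over all genes of each contrast). Each value is the log2 change in the first class minus that in the second, from 2 libraries per group. Sham and CCI cells of NP1 were mostly in different clusters, so cluster and injury cannot be told apart in differences from NP1. For NF1 minus NP1 the differences were 1.62 for Scn2b (adjusted p = 0.00628), 1.00 for Scn3b (0.0127), -3.01 for Scn4b (0.0180), 0.89 for Fgf12 (1.89e-06) and 1.67 for Fgf13 (6.77e-21). The value of Scn4b rests on 2 and 0 UMIs in sham and 2 and 4 UMIs in CCI for NP1, and was not called without Female-Sham (-2.34) or without Female-CCI (-2.18). For NF2 minus NP1 they were -0.69 for Scn2b (0.0205), -3.13 for Fgf11 (3.66e-06), -1.21 for Fgf12 (3.52e-06) and 1.72 for Fgf13 (1.42e-07). For NF2 minus NF1 they were -2.33 for Scn2b (0.00219), -1.31 for Scn3b (0.00880), 1.23 for Scn4b (4.58e-05) and -2.07 for Fgf12 (1.22e-10). Leaving out 1 library ended the calls of Scn2b in NF1 minus NP1 (1.92 without Male-CCI, 1.41 without Female-CCI) and in NF2 minus NP1 (-0.38 without Male-Sham, -0.50 without Male-CCI). It also ended those of Scn3b in NF1 minus NP1 (0.80 without Female-Sham, 0.69 without Female-CCI) and in NF2 minus NF1 (-1.15 without Male-CCI).

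Fgf11 in NF1 minus NP1 was -3.01 and not called (adjusted p = 0.0797), but was called without Female-Sham (-5.58), without Male-CCI (-2.62) and without Female-CCI (-3.38).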

How the results depend on the processing

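Each test rested on 2 libraries per group. Across all neurons 5 members were called, 4 to 6 under every alternative and on leaving out each library. In Sprr1a+ neurons of the CCI libraries the 6 calls became 5 with any UMI of Sprr1a as positive and stayed 6 in the other alternatives, including the fit with no replicate block, and no library could be left out because 1 pair leaves no residual spread. Within classes the 22 calls ran from 17 to 22 where the 4 classes could be formed, 19 to 22 on leaving out a library, and were 14 of 16, 17 of 17 and 14 of 17 where only 3 could. With sex as a replicate block the counts were 5, 21 and 7 in the 3 comparisons of CCI with sham, and the only call lost was Fgf11 in NF1. Among Sprr1a- neurons the 7 calls fell to 3 with DESeq2 and to 3 with any UMI of Sprr1a as positive, and ranged from 2 to 12 on leaving out a library. The 13 called differences between classes became 8 with DESeq2. With any UMI of Sprr1a as positive the NF2 minus NP1 differences turned to 0.31 for Scn2b, 0.64 for Scn3b and 0.059 for Fgf12. Within the single cluster that held most Sprr1a+ CCI cells the PEP5 changes turned to 0.45 for Scn4b and 0.14 for Fgf12. Only the sham cells of that cluster entered there. The cause of these and the other shifts was not tested. At resolutions 0.4 and 1.2 the calls of Fgf11 and Scn3b in PEP5 were lost. The class with the highest sham level was the same for 7 of 7 members, except for 6 of 7 at the 5% mitochondrial limit and with doublets kept. This holds for the highest class only, and not for the levels or the order of the other classes. Depth limits Fgf14, and Scn4b and Fgf11 in classes with fewer than 10 UMIs.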

Other observations

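Some CCI-ind-like neurons were also found in the sham libraries, 37 cells in Male-Sham and 125 in Female-Sham being Sprr1a+. Their Fgf13 was at 115 and 117 CPM, beside 92.6 and 92.7 CPM in the same class of Male-CCI and Female-CCI. Their Fgf11 was at 4.64 and 3.89 CPM (10 and 20 UMIs), beside 23.1 and 20.3 CPM after CCI. These cells were set apart by their own expression and were not tested.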
